A study of Mus musculus with 4 samples.

Results

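Cholesterol synthesis was followed through 8 genes, the enzyme genes Hmgcs1, Idi1, Fdps, Fdft1, Sqle and Lss and the control genes Srebf2 and Insig1, taken by gene symbol from a table of 55203 genes. They were listed with 42 transcripts in all, and the level of a gene was the sum over its transcripts in FPKM (fragments scaled to transcript length and to the mapped library). The tissue was intestine of adult male wild-type C57BL/6NTac mice aged 8 to 12 weeks and held SPF (specific pathogen free). Of the 4 libraries, 2 carried the label 4 mM RVC, for ribonucleoside vanadyl complex, an inhibitor of ribonucleases, and 2 the label fresh frozen. The protocol text, which describes a rinse in RVC, was the same for all 4, and nothing beyond the label tells how the fresh-frozen tissue was handled. The purpose given for the series was a bulk measurement to set beside MERFISH, an imaging assay that counts RNA molecules in tissue sections, and no question was stated for RVC against fresh frozen.

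Cells build cholesterol from acetyl-CoA through mevalonate, the isoprenoid diphosphates and squalene, in a chain of enzymes of the cytosol and endoplasmic reticulum. Transcription of most of these enzymes is driven by SREBP2, the product of Srebf2, which is carried by SCAP from the endoplasmic reticulum to the Golgi and cut there when membrane sterol is low. INSIG proteins hold SCAP back when sterol is plentiful. Insig1 is itself a target of SREBP, so that its RNA moves with the pathway it restrains. The gut is a main site of sterol synthesis outside the liver, and its epithelium renews constantly.

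SREBP binds sterol regulatory elements, usually beside NF-Y and Sp1 sites, so the stretch of 250 bases before the start of the most abundant transcript of each gene was read from the GRCm39 genome. The motifs searched on both strands were CACNCCAC (the core of a sterol regulatory element), CCAAT (NF-Y), GGGCGG (Sp1) and CANNTG (E-box, which reads as the same motif on either strand). CACNCCAC was present before 3 of the 8 genes, Hmgcs1, Sqle and Insig1, and before 5.18% of 13670 expressed genes searched in the same way. CCAAT was present before 7 of the 8, all but Idi1, and before 35.0% of the expressed genes. In Fdft1 all 250 bases of the window lay in annotated exons, and in Lss 124 bases did. The CCAAT matches of these genes lay within such exon bases. GGGCGG was found before 6 of 8 against 50.3%, and CANNTG before 4 of 8 against 59.2%. These are matches of letters in short windows, not mapped binding sites. The windows of the 3 genes with CACNCCAC and of Idi1, whose level differed between groups by about as much as that of Hmgcs1, are printed 5′ to 3′ on the strand of the gene, with CACNCCAC and CCAAT matches in capitals. They end where an annotated exon of the gene begins, and they lie on the plus strand at chr13:120151732-120151914 (Hmgcs1), chr15:59186680-59186868 (Sqle), chr5:28276111-28276314 (Insig1) and chr13:8935287-8935536 (Idi1).
Hmgcs1: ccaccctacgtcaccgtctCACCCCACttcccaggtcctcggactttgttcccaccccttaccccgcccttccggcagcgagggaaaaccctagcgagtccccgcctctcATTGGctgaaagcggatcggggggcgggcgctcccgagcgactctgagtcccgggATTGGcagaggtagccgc
Sqle: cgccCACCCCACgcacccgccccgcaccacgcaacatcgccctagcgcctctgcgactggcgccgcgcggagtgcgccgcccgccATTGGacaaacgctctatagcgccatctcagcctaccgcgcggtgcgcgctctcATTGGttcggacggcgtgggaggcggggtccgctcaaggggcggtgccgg
Insig1: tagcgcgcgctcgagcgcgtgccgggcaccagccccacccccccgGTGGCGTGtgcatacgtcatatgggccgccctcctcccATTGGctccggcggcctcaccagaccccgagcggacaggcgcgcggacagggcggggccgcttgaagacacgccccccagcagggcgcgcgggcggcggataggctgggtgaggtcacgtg
Idi1: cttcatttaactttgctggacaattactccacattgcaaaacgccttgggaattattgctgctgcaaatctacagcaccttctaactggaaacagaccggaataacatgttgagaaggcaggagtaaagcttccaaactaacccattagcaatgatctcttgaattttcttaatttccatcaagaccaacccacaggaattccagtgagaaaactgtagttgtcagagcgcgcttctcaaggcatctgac
Hmgcs1 and Sqle held the same 8 letters, CACCCCAC, at positions -231 and -246 from their starts, each followed by 2 CCAAT motifs on the opposite strand, printed as ATTGG. In Insig1 the match lay on the opposite strand, printed as GTGGCGTG. Idi1 held neither motif in its window. Its other transcripts start further downstream, from 8935979 on, and the sequence before those starts was not searched.

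The libraries were of similar depth. Judged by coverage per unit of FPKM, which grows with the mapped fragments, the other libraries stood at 72.6% to 81.8% of fresh frozen 2, and the number of fragments is unknown. Tissue labels named ileum and the protocol text named distal colon. In all 4 libraries the colon gene Car1 measured 1576 to 1781 FPKM. In a list of 7 genes taken for the ileum, 2, Fgf15 and Apoa4, were listed at 0. The other 5 were detected in every library, 4 of them at 2.33 to 43.7 FPKM, among them Fabp6 at 2.70 to 3.96. The 7 genes of this list summed to 38.5 to 71.9 FPKM and the 6 genes of the colon list to 3190 to 4239. Most of the former sum came from Apob, at 16.7 to 30.1 FPKM, and Fabp2, at 14.5 to 43.7. A separate batch number was given to each of the 4, and effects of batch and of group therefore cannot be told apart.

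All 8 genes were expressed in every library. Hmgcs1 was the most abundant and Lss the least, and the order in between was fixed only in part. Ranked among 11511 protein-coding genes averaging 1 FPKM or more, Hmgcs1 stood at the 94.7th percentile, Insig1 at the 92.0th and Lss at the 55.4th. Hmgcs1 lay above Insig1, Insig1 above Fdps, and Srebf2 above Lss in 4 of 4 libraries with no overlap of their ranges. Fdps lay above Idi1 and Sqle above Fdft1 in 4 of 4 libraries, although their ranges overlapped. Idi1 and Sqle kept their order in 3 of 4 libraries. Fdft1 exceeded Srebf2 in 1 of 4, so these neighbours did not differ beyond their spread. The coefficient of variation over the 4 libraries was 3.13% for Fdps, 4.55% for Srebf2 and 19.8% for both Hmgcs1 and Idi1, against a median of 13.8% for the genes tested.

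**Figure D1:**
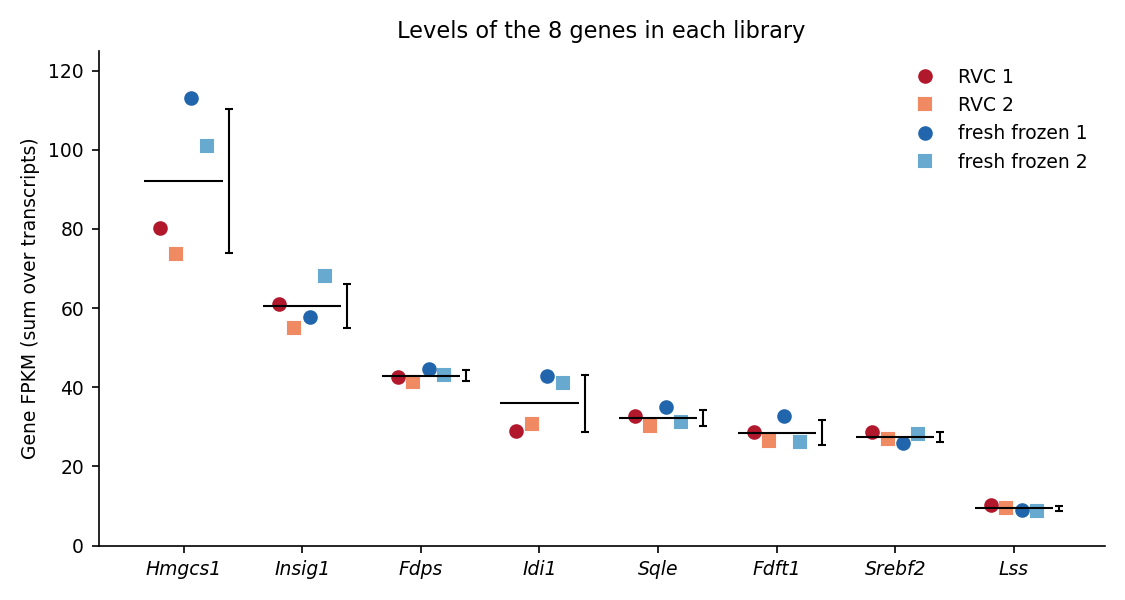
Gene FPKM, the sum over transcripts, of the 8 genes in each library, ordered by mean. Points are libraries, the horizontal line is the mean of 4 and the bar at the right of each gene is ± SD. For Hmgcs1 and Idi1 both RVC points lie below both fresh-frozen points.

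Between RVC and fresh frozen, Hmgcs1 and Idi1 were lower in both RVC libraries by 27.8% and 28.7%, the other 6 genes differed by at most 12.9% in scaled means, and none of the 8 passed the adjusted threshold. Genes were compared with limma on log2(scaled FPKM + 1), two-sided, over 13771 genes, and the Benjamini-Hochberg adjusted p had to be under 0.05. That threshold was passed by 0.0363% of all genes tested and by 0 of the 8. At an unadjusted p under 0.05 there were 2 of the 8, Hmgcs1 and Idi1, against 18.4% of all genes tested, and both were lower in RVC, against 8.99%. The log2 fold change lay below 0 for 6 of the 8, against 49% of all genes tested. Groups did not overlap for 4 of the 8 genes, against 53.2% of all genes tested, a share near the background. Nothing in the labels says that the libraries came from separate mice, so these p-values measure the spread between libraries, and with 2 libraries against 2 an exact permutation test of a single gene cannot go below 0.333. In bulk tissue, fewer cells of a type and less RNA per cell cannot be told apart.

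Hmgcs1 (ENSMUSG00000093930, chromosome 13, 120151915 to 120169796, plus strand) encodes cytosolic HMG-CoA synthase, which joins acetyl-CoA to acetoacetyl-CoA. In the RVC libraries it measured 80.3 and 73.7 FPKM, and in the fresh-frozen libraries, given like all values below in the order 1 and 2, 113 and 101. Both RVC libraries lay below both fresh-frozen libraries. After scaling, the RVC mean was 77.1 ± 4.95 and the fresh-frozen mean 107 ± 6.95 FPKM (SD over 2 libraries in each). The log2 fold change was -0.46 (SE 0.11, 95% interval -0.73 to -0.20), with a limma p of 0.00413 and an adjusted p of 0.138. Among all genes tested, 3.39% had a lower log2 fold change. Its CACNCCAC-bearing window stands among the sequences above.

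Most of the Hmgcs1 level came from 1 transcript, so the difference in that transcript largely restates that of the gene. ENSMUST00000179869, a protein-coding transcript of 10 exons and 3245 nt, made up 74.8% to 82.7% of the gene. It was listed at 64.0 and 55.2 FPKM under RVC, compared with 93.6 and 75.9 for fresh frozen. The upper confidence bound in RVC 1, 67.2, lay below the lower bound in fresh frozen 2, 72.3. The bounds are those of the deposited files and cover the estimate within a library only. The next transcript, ENSMUST00000224188, overlapped between groups, at 10.6 and 14.6 FPKM under RVC against 13.5 and 18.7 for fresh frozen. A long noncoding RNA gene on the opposite strand, Gm48342, overlaps 6190 bases of Hmgcs1, and the files do not say whether reads were assigned by strand. Gm48342 measured 18.0 and 15.6 FPKM under RVC, compared with 22.1 and 21.3 for fresh frozen. Its ratio to Hmgcs1 stayed between 0.196 and 0.224 in the 4 libraries, and the share of reads that belongs to each was not tested.

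Idi1 (ENSMUSG00000058258, chromosome 13, 8935537 to 8942487, plus strand) encodes isopentenyl diphosphate isomerase, which makes the allylic primer for isoprenoid chains. It measured 28.9 and 30.8 FPKM under RVC, compared with 42.9 and 41.1 for fresh frozen. The groups did not overlap, and the libraries within a group lay close together. The scaled RVC mean was 29.9 ± 1.26 and the fresh-frozen mean 41.9 ± 0.608 FPKM (SD over 2 libraries in each). The log2 fold change was -0.48 (SE 0.10, 95% interval -0.72 to -0.23), with a limma p of 0.00234 and an adjusted p of 0.129. Its 3027-nt transcript ENSMUST00000169314 held 76.4% of the gene in RVC 1 and 85.5% to 89.1% in the other libraries, and a 581-nt transcript, ENSMUST00000177400, held 18.7% in RVC 1 and 3.13% to 5.91% elsewhere.

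Idi1 has a copy that shares its sequence. Idi1-ps1, a processed pseudogene on chromosome 2 (53586133 to 53586816), is 684 nt long, and 684 of these bases, 100%, were identical to the main Idi1 transcript in the reference. It was listed at 8.48 and 9.96 FPKM in RVC and at 13.4 in both fresh-frozen libraries. Relative to Idi1 these values were 0.294 to 0.326, a narrow range. Reads from the shared stretch cannot be assigned to one or the other, so the level of Idi1 is uncertain. Both entries were lower in RVC, with a log2 fold change for Idi1-ps1 of -0.49 (SE 0.12, limma adjusted p 0.141). Idi2, the paralogue of Idi1, was listed at 0 in all 4 libraries.

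For Fdps and Fdft1 the scaled means lay at most 6.15% apart. Fdps (ENSMUSG00000059743, chromosome 3, 89000895 to 89009266, minus strand) encodes farnesyl diphosphate synthase, which builds the branch-point isoprenoid and is the target of bisphosphonate drugs. It measured 42.6 and 41.4 FPKM under RVC, compared with 44.7 and 43.1 for fresh frozen. These groups did not overlap, but they lay only 3.96% apart in scaled means, with a log2 fold change of -0.057 (95% interval -0.30 to 0.18, limma adjusted p 0.784). Fdft1 (ENSMUSG00000021273, chromosome 14, 63382599 to 63417027, minus strand) encodes squalene synthase, which commits carbon to sterols. It measured 28.7 and 26.4 FPKM under RVC, compared with 32.8 and 26.1 for fresh frozen. The groups overlapped, with fresh frozen 1 the highest library, and the log2 fold change was -0.082 (95% interval -0.39 to 0.23, limma adjusted p 0.755). Without fresh frozen 1 it was 0.064. Fdft1 shares 774 bases at its 3′ end with the cathepsin gene Ctsb on the opposite strand, which measured 88.9 to 119 FPKM.

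Sqle (ENSMUSG00000022351, chromosome 15, 59186926 to 59203041, plus strand) encodes squalene monooxygenase, the oxygen-dependent step that is a control point of the sterol branch. It measured 32.7 and 30.3 FPKM under RVC, compared with 34.9 and 31.2 for fresh frozen. The groups overlapped, and the log2 fold change was -0.061 (95% interval -0.32 to 0.20, limma adjusted p 0.788). Without fresh frozen 1 it was 0.0033. Sqle carries the same CACCCCAC as Hmgcs1, and 1 transcript, ENSMUST00000022977, gave 96.5% to 98.0% of it. Hmgcs1 exceeded Sqle 2.46-fold in RVC 1, 2.43-fold in RVC 2 and 3.24-fold in each fresh-frozen library. This ratio does not depend on how libraries are scaled. It did not overlap between groups, but Hmgcs1 itself was already lower in both RVC libraries, so the ratio adds no separate support. The ratio of Sqle to Lss did not overlap either, and groups did not overlap for 53.2% of all genes tested. The ratio of Hmgcs1 to Idi1, both lower in RVC, overlapped, at 2.78 and 2.39 in RVC and 2.64 and 2.46 in fresh frozen.

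Lss (ENSMUSG00000033105, chromosome 10, 76367422 to 76392972, plus strand) encodes lanosterol synthase, which folds squalene epoxide into the first sterol. It measured 10.3 and 9.63 FPKM under RVC, compared with 8.90 and 8.81 for fresh frozen. Lss was the only one of the 8 with both RVC libraries above both fresh-frozen libraries, by 12.9% in scaled means, with a log2 fold change of 0.16 (95% interval -0.11 to 0.43, limma adjusted p 0.475). Transcripts annotated as protein-coding held only 32.6% to 44.2% of it. The largest single entry, ENSMUST00000159013, is a 352-nt transcript with no defined coding sequence, at 5.06 and 4.35 FPKM under RVC, compared with 3.74 and 2.52 for fresh frozen. The full-length coding transcript ENSMUST00000048678, of 22 exons, was listed at 3.29 and 2.87 FPKM under RVC, compared with 2.50 and 2.69 for fresh frozen. With protein-coding transcripts alone the log2 fold change of Lss was 0.0043 (limma adjusted p 0.992), an alternative chosen after the values were seen. Short transcripts have wide bounds, 2.56 to 7.56 FPKM for the 352-nt entry in RVC 1.

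**Figure D2:**
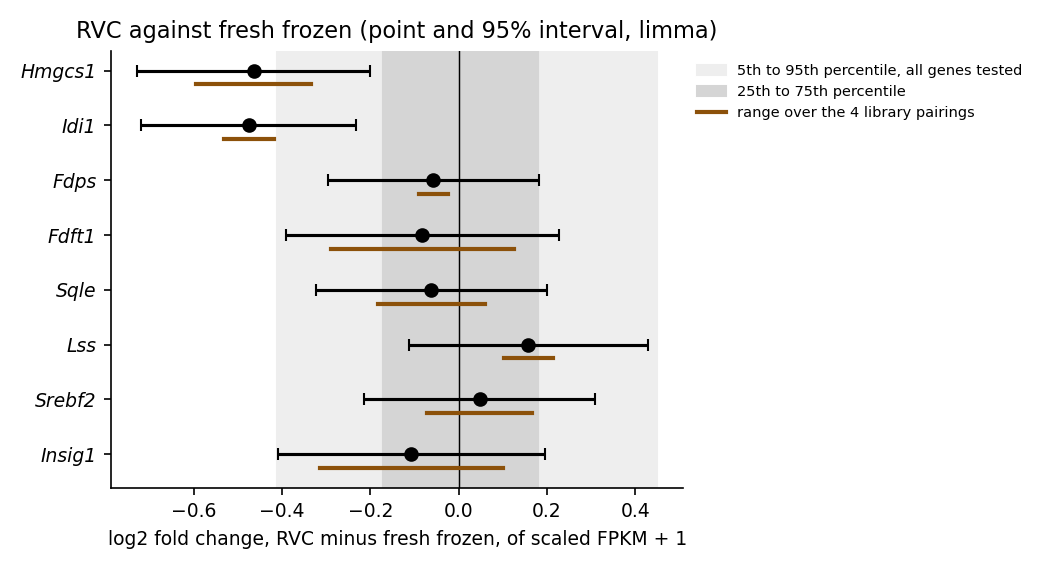
Log2 fold change, RVC minus fresh frozen, of each of the 8 genes, with its 95% interval from limma (black) and the range over the 4 library pairs taken across the groups (brown). Grey bands give percentiles over all genes tested. The intervals of Hmgcs1 and Idi1 end below 0 before adjustment and those of the other 6 include 0.

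The levels of both control genes overlapped between the groups. Srebf2 (ENSMUSG00000022463, chromosome 15, 82031382 to 82089580, plus strand) measured 28.7 and 27.1 FPKM under RVC, compared with 25.9 and 28.2 for fresh frozen. The groups overlapped, with a log2 fold change of 0.047 (95% interval -0.21 to 0.31, limma adjusted p 0.841), which was -0.026 without fresh frozen 1 and -0.040 when libraries were scaled by epithelial markers. Insig1 (ENSMUSG00000045294, chromosome 5, 28276361 to 28283660, plus strand) measured 61.0 and 55.0 FPKM under RVC, compared with 57.8 and 68.0 for fresh frozen. These groups overlapped too, with a log2 fold change of -0.11 (95% interval -0.41 to 0.19, limma adjusted p 0.670), which was 0.024 without fresh frozen 2. Fresh frozen 1 was the lowest library for Srebf2 but the highest for 5 of the 8 genes, all of them enzymes.

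Like Lss, Srebf2 held a sizeable share of transcripts that are not protein-coding. Its full-length transcript ENSMUST00000023100, of 19 exons and 5077 nt, held 60.6% to 64.0% of the gene, and ENSMUST00000230105, a retained-intron transcript of 4 exons, held 26.2% to 28.3%. The latter measured 7.53 and 7.66 FPKM under RVC, compared with 7.22 and 7.89 for fresh frozen, a narrower range than that of the gene, and it covers the 5′ part of Srebf2. Mir33, the microRNA gene within Srebf2 on the same strand, was listed at 0 in every library. Its entry spans 69 bases, shorter than the 150-bp reads, so the 0 does not show that the microRNA was absent. For Insig1 a retained-intron transcript of 757 nt held 4.58% to 6.93%, and the rest was the coding transcript ENSMUST00000059155. Protein-coding transcripts held at least 96.3% of Hmgcs1, Idi1, Fdps, Fdft1 and Sqle in every library.

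**Figure D3:**
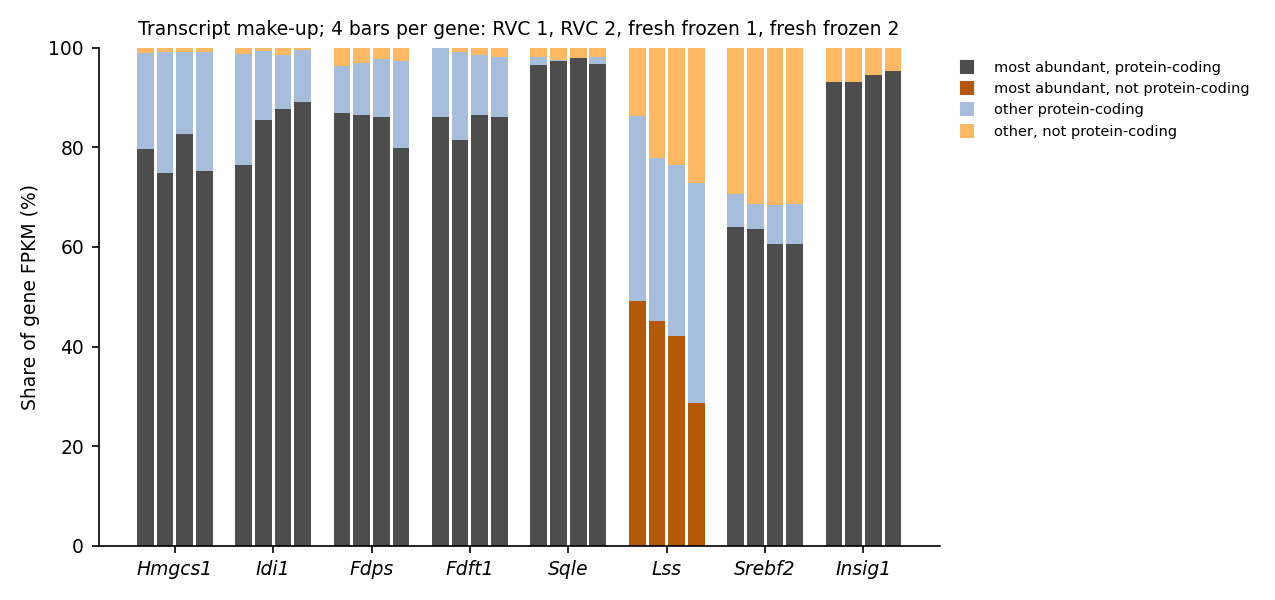
Share of each gene's FPKM, in percent, held by its most abundant transcript, by other protein-coding transcripts and by other transcripts, with 4 bars per gene for the 4 libraries. Lss and Srebf2 stand out by the share of transcripts that are not protein-coding.

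Of the 42 transcripts, 19 were long and abundant enough to be compared. Adjusted over 24080 transcripts, 0 of the 19 passed, against 0.00415% of all transcripts tested, and at an unadjusted p under 0.05 there were 2, against 15.6%. These were the main transcripts of Idi1, with a log2 fold change of -0.60 (SE 0.12, limma adjusted p 0.227), and of Hmgcs1, at -0.50 (SE 0.14, limma adjusted p 0.261).

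The remaining enzymes of the pathway were read from a list of 15 genes that could be measured. With the 6 enzymes above this made 21, from Msmo1 at 103 ± 13.4 FPKM (SD, n = 4) to Hsd17b7 at 4.91 ± 0.157. Msmo1, a sterol C4-methyl oxidase, and Hmgcs1 headed the order, followed by Sc5d, the sterol C5-desaturase, at 49.4 ± 4.79. The mevalonate kinase gene Mvk measured 7.5 ± 0.384 and the phosphomevalonate kinase gene Pmvk 10.4 ± 0.944. Lss, at the closure of the sterol ring, stood at place 18 of 21.

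Among the 15 other enzymes, 12 had a lower and 3 a higher mean in RVC, and 0 passed the adjusted threshold. Without overlap of the groups, 7 were lower and 0 higher. Of all genes tested, 26.6% were lower and 26.5% higher without overlap, and 53.2% did not overlap in either direction. Their median log2 fold change was -0.055, against 0.0066 over all genes tested and -0.072 over the 8 genes. The median of the 8 was -0.13 without RVC 1, -0.026 without RVC 2, -0.036 without fresh frozen 1 and -0.097 without fresh frozen 2. The lowest was Lbr, a sterol reductase and lamin receptor, at -0.34 (SE 0.12, limma adjusted p 0.210). It was followed by the lanosterol demethylase gene Cyp51 at -0.32 (SE 0.11, limma adjusted p 0.210). Dhcr7, a reductase gene of the closing steps, stood at -0.0087, and its groups overlapped. In the order of all 21 enzymes by log2 fold change, Idi1 and Hmgcs1 were the lowest and Lss the highest.

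**Figure D4:**
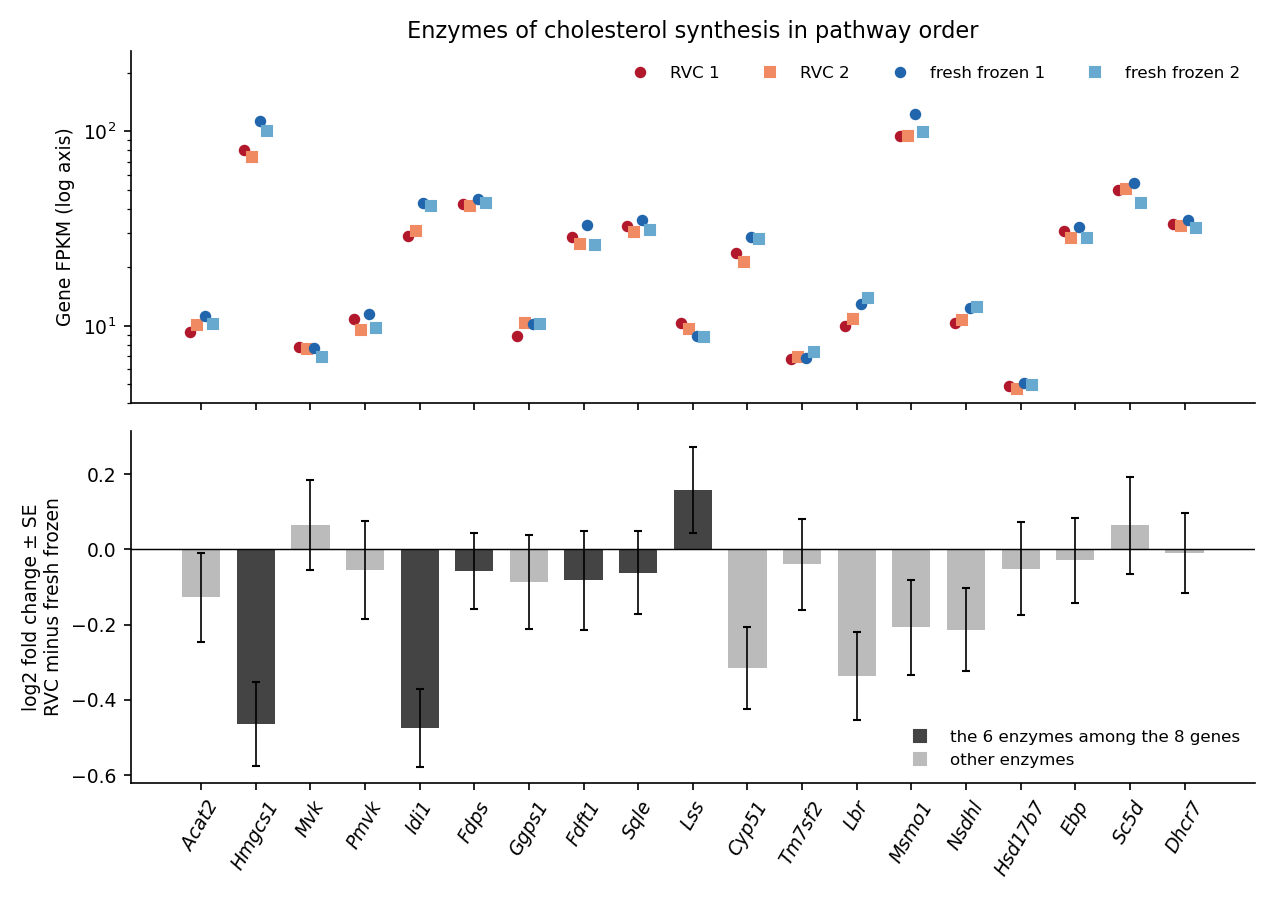
Of the 21 enzymes of cholesterol synthesis, 19 are drawn, in pathway order. The upper panel gives gene FPKM in each library on a log axis and the lower panel the log2 fold change, RVC minus fresh frozen, with its SE. Idi1 and Hmgcs1 have the lowest values, and Lss the highest.

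Among the partners of Srebf2 and Insig1, Scap and Insig2 were lower in level than either gene. Scap, the sterol sensor that escorts SREBP, measured 6.16 ± 0.682 FPKM (SD, n = 4), and its partner Insig2 16.0 ± 1.44, so that Insig1 exceeded Insig2 3.23-fold to 4.81-fold over the libraries. Srebf1, whose products act mainly on fatty acid genes, measured 10.9 ± 1.06, and Srebf2 exceeded it 2.21-fold to 2.87-fold. Of the proteases that release SREBP, Mbtps1 measured 15.5 ± 0.704 and Mbtps2 4.32 ± 0.596. Among the 10 genes of SREBP processing and sterol-regulated protein turnover, 5 were higher and 5 lower in RVC, and 0 passed, with Scap the highest at 0.21 (SE 0.13, limma adjusted p 0.403) and the ubiquitin ligase gene Rnf139 the lowest at -0.26 (SE 0.12, limma adjusted p 0.296).

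Genes that handle sterol after synthesis were mostly higher in RVC, without passing the threshold. In the list of liver X receptor (LXR), export and esterification genes, 8 of 9 tested were higher and 1 lower in RVC. Their log2 fold changes had a median of 0.38. Without overlap, 6 were higher and 1 lower, against 26.5% and 26.6% of all genes tested. None of these 9 passed the adjusted threshold, and 5 of them had an unadjusted p under 0.05, against 18.4% of all genes tested in either direction. The highest on the log2(scaled FPKM + 1) scale was Abcg5, a subunit of the sterol exporter of the brush border, at 5.65 and 7.05 FPKM under RVC, compared with 4.15 and 3.43 for fresh frozen. Its log2 fold change was 0.62 (SE 0.15, limma adjusted p 0.138). Abcg8, the other subunit, stood at 0.61 (SE 0.15, limma adjusted p 0.138), and in ratio of scaled means it was the larger of the pair, at 2.08 against 1.68 for Abcg5. Nr1h3, which encodes LXR-alpha, was the lowest at -0.18 (SE 0.12, limma adjusted p 0.423). The cholesterol esterification gene Soat1 was listed at 52.9 and 51.5 FPKM under RVC, compared with 40.4 and 38.4 for fresh frozen.

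Among SREBP2 targets for uptake and transport, 5 of 7 genes were tested, 1 higher and 4 lower in RVC, and 0 passed. Stard4, a sterol carrier, was the lowest at -0.25 (SE 0.11, limma adjusted p 0.279) and Npc1, which frees lysosomal cholesterol, the highest at 0.36 (SE 0.12, limma adjusted p 0.198). Npc1l1, the sterol importer of the small intestine, was listed at no more than 0.04 FPKM. Of 13 fatty acid genes under SREBP1, 4 were higher and 9 lower in RVC, with a median of -0.20 and 0 passing, from Fads2 at -0.42 (SE 0.12, limma adjusted p 0.167) to Me1 at 0.34 (SE 0.14, limma adjusted p 0.270). Of 11 genes of the isoprenoid branches, which use the products of Idi1 and Fdps, 4 were higher and 7 lower, with a median of -0.11 and 0 passing. The lowest, Rabggtb of the enzyme that prenylates Rab proteins, stood at -0.48 (SE 0.11, limma adjusted p 0.137), and the highest, Rabggta of the same enzyme, at 0.32 (SE 0.13, limma adjusted p 0.259).

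**Figure D5:**
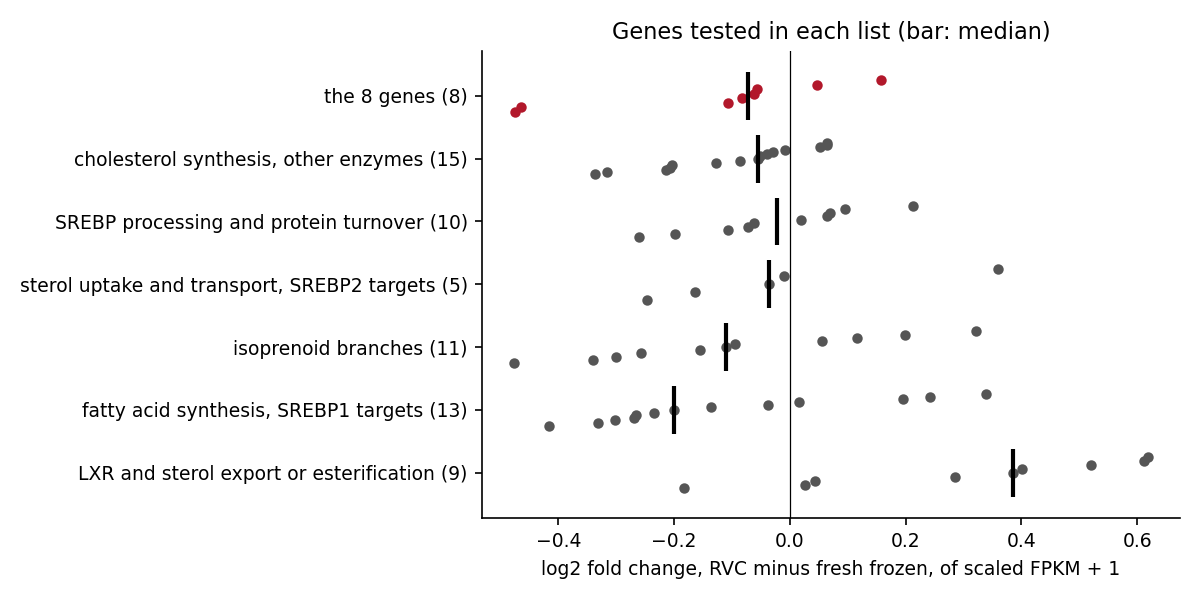
Log2 fold change, RVC minus fresh frozen, of every gene tested in 7 groups of sterol and lipid genes, with the number tested in brackets. Points are genes and the bar is the median, which is 0.38 for the LXR and export genes and between -0.20 and -0.021 for the other groups.

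Markers of several cell types differed in level between the groups as well. The summed level of 9 colonic epithelium genes was 6698 and 6336 FPKM under RVC, compared with 6479 and 5537 for fresh frozen, so it overlapped. Of these 9 genes, 8 were higher in RVC, while 49% of all genes tested had a log2 fold change below 0. Without overlap, 4 of the 9 were higher and 0 lower, against 26.5% and 26.6% of all genes tested. The mucin gene Muc2 had the lower mean in RVC, with overlap, at 176 and 143 FPKM against 139 and 302 for fresh frozen. Scaling libraries by these 9 genes, most of them higher in RVC, moved each of the 8 sterol genes down. Hmgcs1 came to -0.55 and Idi1 to -0.56 (limma adjusted p 0.104 and 0.123). Fdps went from -0.057 to -0.15 and Lss from 0.16 to 0.076. Since the scaling shifted all 8 in the same direction, it cannot tell what part epithelial content had. Smooth muscle markers, 8 of 8 higher in RVC, summed to 1168 and 1728 FPKM under RVC, compared with 728 and 778 for fresh frozen. Endothelial markers, 5 of 5 higher, summed to 19.4 and 18.5 against 9.74 and 11.8. Immune markers summed to 142 to 162 in RVC and 109 to 129 in fresh frozen. Most of this came from Jchain, at 68.9 to 99.4 FPKM, and Cd74, at 22.2 to 37.3. Of the 5 immune markers tested, 4 were higher in RVC. The leukocyte gene Ptprc had the lower mean, with overlap, at 4.25 and 2.87 FPKM against 3.15 and 5.40 for fresh frozen. Neuron and glia markers summed to 16.1 to 19.4 in RVC and 10.6 to 16.6 in fresh frozen, so the groups overlapped. Most of this came from Uchl1, at 12.0 and 8.94 FPKM under RVC against 5.84 and 9.27 for fresh frozen, also with overlap. Of the 5 neuron and glia markers tested, 4 were higher in RVC and 1, Elavl4, was lower with overlap. Among adipocyte markers, which would show attached fat, Fabp4 measured 3.40 to 5.94 FPKM and Cidec 0.760 to 1.53. Adipoq reached at most 0.323, Plin1 stood at no more than 0.04 and Lep was listed at 0 in 3 libraries. The 5 together, mostly Fabp4 and Cidec, summed to 6.72 to 6.80 in RVC and 4.91 to 7.27 in fresh frozen. The part of these markers in the differences of Hmgcs1 and Idi1 was not tested.

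Likeness was measured as the distance of a gene from the mean profile of the 8 genes. Profiles were log2(scaled FPKM + 1) over the 4 libraries, each centred on its own mean. The mean profile of the 8 stood at -0.024 and -0.11 under RVC, and at 0.077 and 0.054 under fresh frozen. The nearest of 7414 other genes, each averaging 5 FPKM or more, were Mef2a, Pawr, Fkbp5, Mrps14 and Ikbkg, at distances of 0.015 to 0.022. Each of the 8 genes themselves lay farther from their mean than these 5, with Fdps nearest, at 0.0781, and Idi1 farthest, at 0.365. The 5 are therefore like the mean of the 8 and not like its single genes.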

How the data were processed

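Total RNA of 4 libraries was depleted of ribosomal RNA and sequenced as 150-bp pairs, per the labels' protocols. The authors aligned reads with TopHat2 2.1.1 to GRCm39 and estimated abundance with Cufflinks 2.2.1, per the submitters' processing notes. The authors deposited FPKM values per transcript with confidence bounds, and coverage, a signal of read depth per base, per the file headers. Annotation release and strand setting are not given in the sources used here. A count model was not applied, since FPKM are no counts.

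Transcripts were summed by gene, scaled by median ratio (factors 0.992 to 1.01) and compared with limma 3.58.1 in R 4.3.3 on log2(scaled FPKM + 1), with a mean-variance trend, 4 libraries and no covariate, for genes with a mean of at least 1 FPKM, a transcript of at least 300 nt and every status OK. The script was tested on simulated data. Transcript types came from GENCODE release 39, sequences from its GRCm39 genome. Named beyond the 8 genes were, from each list, genes past the threshold or else the highest and lowest, and counterparts of the 8. Also named were the 5 genes nearest to the mean profile of the 8 and transcripts at 1 FPKM or 5% of a gene. Gm48342, Idi1-ps1, Ctsb, Mir33 and other examples were chosen after their values were seen. The 8 genes and the lists were chosen with earlier results of these data known. Alternatives were another pseudocount, scaling, filter, length minimum or gene sum, a replicate block, no trend and each library left out. Some items of these lists are counted but not reported here by name.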

Additional observations from a re-analysis of the deposited data

How the results depend on the processing

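No alternative brought any of the 8 genes past the adjusted threshold. Over 16 alternatives Hmgcs1 ran from -0.55 to -0.40 (limma adjusted p 0.0899 to 0.423) and Idi1 from -0.58 to -0.43 (limma adjusted p 0.0862 to 0.475), both always lower in RVC, whereas Lss stayed above 0, from 0.0043 to 0.50. Leaving out each library in turn took Fdft1 from -0.23 to 0.064, Sqle from -0.13 to 0.0033, Srebf2 from -0.026 to 0.12, Insig1 from -0.24 to 0.024 and the median of the 8 from -0.13 to -0.026. When each gene was read from its top transcript alone, Fdps turned to 0.024, and the levels became 72.2 FPKM for Hmgcs1, 36.4 for Fdps, 24.3 for Fdft1, 3.92 for Lss and 17.1 for Srebf2. Scaling by epithelial markers, added after the values were seen, turned Srebf2 to -0.040 and moved the median of the 8 genes to -0.16.

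The 5 genes that passed over the whole table became 0 without a filter on low values, without transcripts under 300 nt in the sum, without a trend or with protein-coding transcripts only (3531, 2577, 2461 and 2357 genes at an unadjusted p under 0.05). They became 14 with a minimum of 5 FPKM, 2 with the most abundant transcript, 16 with epithelial scaling, and 14 to 30 with a library left out. Such fits assume that a lone library varies like the others. For transcripts the count of 1 became 0 without a filter (9176 at an unadjusted p under 0.05), 6 with a minimum of 5 FPKM, 7 without the length minimum and 0 with any library left out (2103 to 2938 at an unadjusted p under 0.05).

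A replicate block on sample number gave 112 genes and left Hmgcs1 (adjusted p 0.140) and Idi1 (0.128) uncalled. Deviations of same-numbered libraries correlated at -0.134 across genes, and the 4 libraries have separate batch numbers, so they share only a number. Precision is limited by 2 libraries a group and by short transcripts.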
